A study of Mus musculus with 8 samples.

Results

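The DNA methylation writers and erasers are 9 genes, taken by name out of the 24421 genes of the expression table: the methyltransferase genes Dnmt1, Dnmt3a and Dnmt3b, their cofactor genes Dnmt3l and Uhrf1, the TET dioxygenase genes Tet1, Tet2 and Tet3, and the glycosylase gene Tdg. The rule goes by gene function and uses no measured value. Messenger RNA was sequenced from mouse embryonic stem cells (mESCs) lacking the histone chaperone gene Hira and from WT mESCs (line W9.5), to follow gene expression while these cells were turned into beating cardiac cultures. The 4 groups were Hira-null at day 15 of hanging drop differentiation, WT at day 15, Hira-null at day 0 and WT at day 0, with 2 libraries each from different biological samples. Both lines carried an HA-tagged histone H3.3, the Hira-null line was 1 clone, so genotype and clone cannot be told apart, and the day 15 cultures were plated embryoid bodies that hold several cell types. Expression was given as FPKM, the fragments counted for a gene scaled by its transcript length and by the size of the library, so levels of different genes can be set side by side.

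Methyl groups are placed on cytosine mostly where it precedes guanine (CpG). DNMT3A and DNMT3B place them on unmethylated DNA, with DNMT3L as a catalytically inactive partner, while UHRF1 recruits DNMT1 to newly replicated DNA so that the pattern is copied. TET1, TET2 and TET3 oxidise methylcytosine, and TDG cuts the further oxidised bases out for base excision repair. In mESCs Dnmt3l, Dnmt3b, Tet1 and Tet2 are highly expressed, and HIRA itself deposits H3.3 outside DNA replication.

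The targeted gene was checked first. At day 15, Hira stood at 16.7 and 19.8 FPKM in the libraries labelled Hira-null, against 15.8 and 15.5 FPKM in WT (log2 fold change 0.20, adjusted p = 0.167), so at that day Hira messenger RNA did not go with the label. In mESCs it stood at 12.4 and 11.4 FPKM in Hira-null, against 27.3 and 28.5 FPKM in WT (-1.17, adjusted p = 8.48e-05). Counted fragments ran from at least 6897009 to at least 11088835 per library, and the FPKM of all genes summed to between 345294 and 355477 in the 4 day 15 libraries and between 481044 and 505172 in the 4 day 0 libraries. Markers of other cell types also differed at day 15: the 12 neuron markers summed to 340 to 359 FPKM in the libraries labelled Hira-null and 160 to 161 FPKM in WT, and the 12 cardiomyocyte markers to 158 to 162 FPKM and 248 FPKM. In such mixed cultures fewer cells of a type and less RNA per cell cannot be told apart. The neuron sum was already 259 to 270 FPKM in Hira-null and 241 to 256 FPKM in WT at day 0. It therefore does not measure neurons alone.

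At day 15, Dnmt3l, Tet1 and Dnmt3a were higher and Uhrf1 was lower under the Hira-null label. At day 0, Uhrf1 was higher and Tet2, Tet1 and Dnmt3b were lower in Hira-null mESCs. Of the 9 genes, 8 reached FPKM 1 in at least 2 libraries and were tested among 14337 such genes. Tdg did not. The day 15 comparison thus called 3 members higher and 1 lower, where 18.6% of all tested genes were called higher and 18.8% lower. The day 0 comparison called 1 member higher and 3 lower, where 20.8% of all tested genes were called higher and 19.4% lower. From 8 members, 4 calls in each comparison stand close to these shares.

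**Figure D1:**
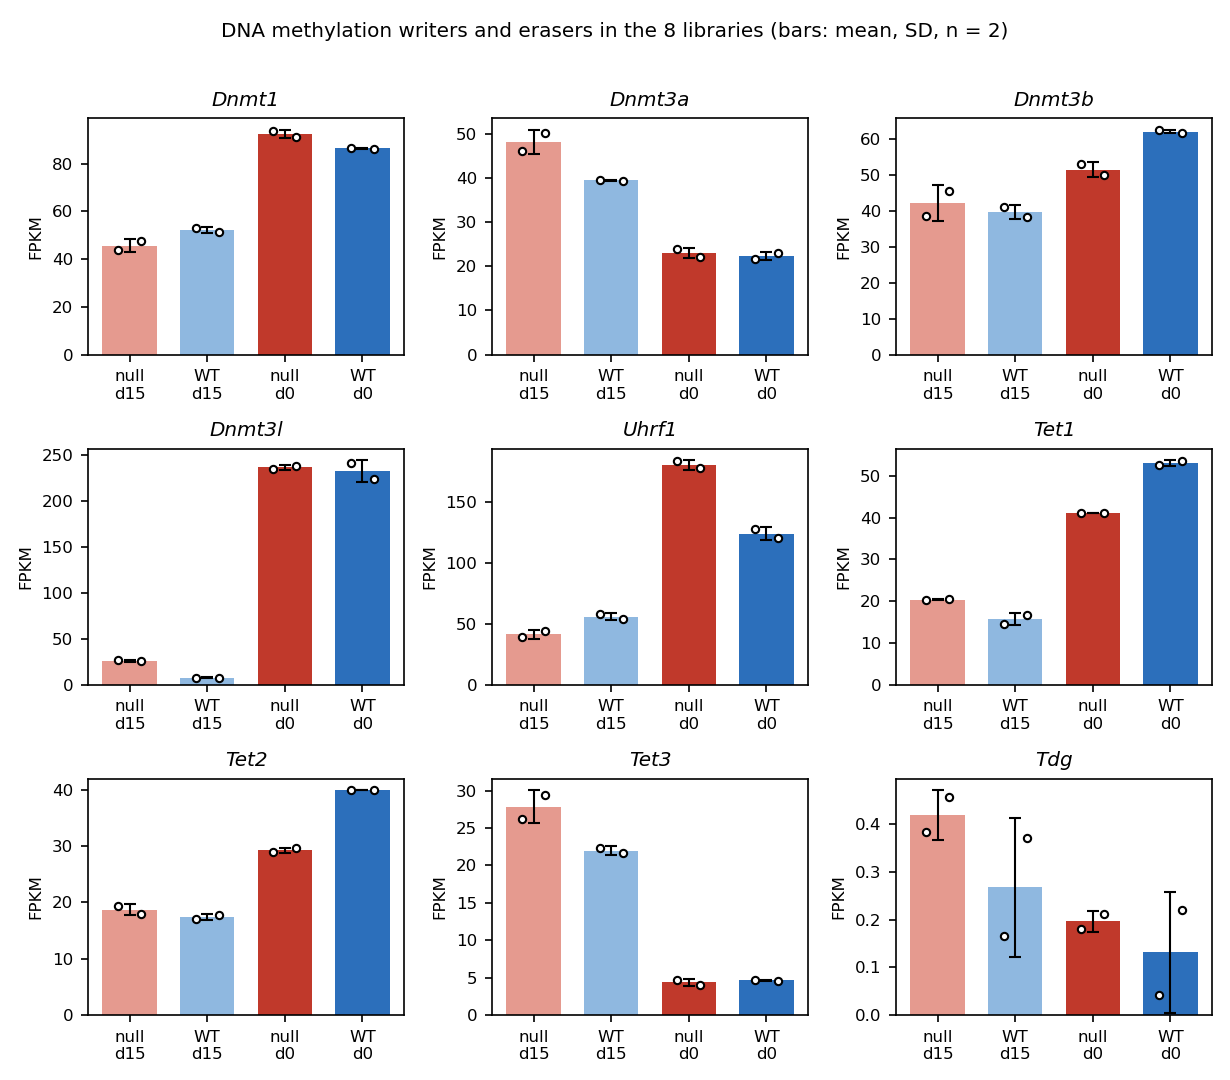
FPKM (vertical axis) of the 9 genes in the 4 groups, with Hira-null (null) and WT at day 15 (d15) on the left and at day 0 (d0) on the right. Bars are means of 2 libraries, whiskers the SD and circles the libraries. Dnmt3l averaged 26.0 and 7.60 FPKM in the day 15 groups and 236 and 232 FPKM in the day 0 groups.

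Uhrf1 showed opposite differences at the 2 time points among the maintenance genes. Uhrf1 (chromosome 17, 56442744 to 56462909 in NCBIM37, plus strand) encodes the reader of hemimethylated DNA. It stood at 38.9 and 43.8 FPKM in the day 15 libraries labelled Hira-null, against 57.9 and 53.7 FPKM in WT. In the mESCs of day 0, Uhrf1 stood at 184 and 178 FPKM in Hira-null, against 128 and 120 FPKM in WT. Neither pair of groups overlapped, and the sign of the difference was reversed between the days. The log2 fold change was -0.42 ± 0.0798 (SE) at day 15 (adjusted p = 0.00366) and 0.54 ± 0.0773 (SE) at day 0 (adjusted p = 0.000855). The effect at day 15 minus that at day 0 was -0.96 (95% interval -1.21 to -0.71, adjusted p = 0.000584). Without WT day 15 replicate 1 the day 15 difference was -0.37 and did not pass (adjusted p = 0.0505). A copy annotated as the pseudogene Gm5648 on chromosome X matches 27.5% of the exon bases of Uhrf1 at 98% identity or more, and fragments from there could have been assigned to either gene.

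Dnmt1 (chromosome 9, 20711650 to 20757317 in NCBIM37, minus strand), the maintenance methyltransferase that UHRF1 recruits, moved less between the genotypes. It stood at 43.6 and 47.6 FPKM in the day 15 libraries labelled Hira-null, against 53.0 and 51.4 FPKM in WT. In mESCs it stood at 93.7 and 91.1 FPKM in Hira-null, against 86.6 and 86.2 FPKM in WT. The groups did not overlap at either day, yet neither difference passed the test. The log2 fold change was -0.19 (95% interval -0.35 to -0.03, adjusted p = 0.0614) at day 15 and 0.10 (95% interval -0.06 to 0.25, adjusted p = 0.2997) at day 0. The difference between these effects was -0.29 (adjusted p = 0.0494), a call that was lost under 12 of 17 other settings (adjusted p up to 0.153). There were 0.906 ± 0.0193 Uhrf1 transcripts per Dnmt1 transcript in the day 15 libraries labelled Hira-null, against 1.07 ± 0.0338 in WT (SD, n = 2 each). At day 0 the same ratio was 1.95 ± 0.00720 in Hira-null and 1.44 ± 0.0551 in WT (SD, n = 2 each). These ratios are given as values and were not tested.

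Dnmt3l showed the largest genotype difference of the 8 tested genes, at day 15 and not at day 0. Dnmt3l (chromosome 10, 77504692 to 77526367 in NCBIM37, plus strand) encodes the partner that stimulates DNMT3A and DNMT3B in germ cells and embryonic cells. It stood at 26.5 and 25.5 FPKM in the day 15 libraries labelled Hira-null, against 7.87 and 7.32 FPKM in WT. The day 15 values rested on 630 to 648 fragments in the libraries labelled Hira-null and 198 to 229 fragments in WT. In mESCs, Dnmt3l stood at 235 and 238 FPKM in Hira-null, against 241 and 224 FPKM in WT, and these groups overlapped. The day 15 difference was 3.42-fold in the means (log2 fold change 1.65 ± 0.0736 (SE), adjusted p = 7.58e-06) and passed the test under each of the 18 other settings tried (log2 fold change 1.605 to 1.84). The day 0 difference was 0.03 (95% interval -0.14 to 0.19, adjusted p = 0.824). The effect at day 15 minus that at day 0 was 1.63 (95% interval 1.39 to 1.86, adjusted p = 7.04e-05). An opposite-strand gene, Aire, shares 67 bases with Dnmt3l exons, which is 2.24% of them, and the sources used here do not say whether strand entered the counts.

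The sequences before the 3 RefSeq start sites of Dnmt3l are shown because this gene changed most and because CpG is what these enzymes act on. Each run is the 250 bases upstream of a start on the plus strand of GRCm38.p6, in lower case with each CpG in capitals. The first spans chr10:78042037-78042286, the second chr10:78049592-78049841 and the third chr10:78055085-78055334.
Dnmt3l start 1: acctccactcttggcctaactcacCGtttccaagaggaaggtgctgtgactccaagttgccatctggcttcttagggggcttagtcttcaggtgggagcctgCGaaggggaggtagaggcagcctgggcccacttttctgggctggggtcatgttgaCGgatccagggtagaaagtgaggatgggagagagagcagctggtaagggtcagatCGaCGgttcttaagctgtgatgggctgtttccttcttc
Dnmt3l start 2: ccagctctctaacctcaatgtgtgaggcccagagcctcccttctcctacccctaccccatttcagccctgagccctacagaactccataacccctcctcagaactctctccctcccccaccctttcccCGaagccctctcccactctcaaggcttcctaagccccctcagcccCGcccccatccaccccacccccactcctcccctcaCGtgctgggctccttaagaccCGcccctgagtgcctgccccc
Dnmt3l start 3: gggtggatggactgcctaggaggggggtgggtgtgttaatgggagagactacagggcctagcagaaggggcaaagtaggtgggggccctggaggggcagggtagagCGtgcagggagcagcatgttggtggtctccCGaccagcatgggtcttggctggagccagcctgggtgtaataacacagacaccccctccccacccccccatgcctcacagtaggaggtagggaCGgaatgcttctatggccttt
They hold 5, 4 and 3 CpG, where the median of 32817 RefSeq windows of this length was 6. The FPKM values do not tell which start was used.

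Dnmt3a and Dnmt3b, the genes of the de novo enzymes, differed by less. Dnmt3a (chromosome 12, 3806007 to 3914443 in NCBIM37, plus strand) stood at 46.2 and 50.2 FPKM in the day 15 libraries labelled Hira-null, against 39.6 and 39.4 FPKM in WT (log2 fold change 0.28 ± 0.0839 (SE), adjusted p = 0.0286). This call was lost without any of 3 libraries of that day, namely WT replicate 1 (adjusted p = 0.136), WT replicate 2 (0.146) or Hira-null replicate 2 (0.102). At day 0 it stood at 23.9 and 22.2 FPKM in Hira-null, against 21.8 and 23.0 FPKM in WT, with overlap and no difference past the test (0.04, 95% interval -0.15 to 0.22, adjusted p = 0.758). Dnmt3b (chromosome 2, 153475186 to 153513466 in NCBIM37, plus strand) had the reverse timing. It stood at 38.6 and 45.6 FPKM in the day 15 libraries labelled Hira-null, against 41.0 and 38.3 FPKM in WT, with overlap (0.08, 95% interval -0.13 to 0.29, adjusted p = 0.526). In mESCs, Dnmt3b stood at 52.9 and 50.1 FPKM in Hira-null, against 62.4 and 61.7 FPKM in WT (log2 fold change -0.27 ± 0.0889 (SE), adjusted p = 0.0416). Leaving out any day 0 library ended this call (adjusted p = 0.0942 to 0.216), as did quantile normalization (0.189). The pseudogene Gm14490 on chromosome 2 matches 10.6% of the exon bases of Dnmt3b at 98% identity or more. The effect at day 15 minus that at day 0 did not pass for either gene (Dnmt3a 0.24, adjusted p = 0.139, and Dnmt3b 0.35, adjusted p = 0.0643).

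Among the TET genes, Tet1 was higher at day 15 and lower at day 0 in the Hira-null libraries. Tet1 (chromosome 10, 62267318 to 62361866 in NCBIM37, minus strand) encodes the main dioxygenase of mESCs together with Tet2. It stood at 20.3 and 20.4 FPKM in the day 15 libraries labelled Hira-null, against 14.7 and 16.7 FPKM in WT (log2 fold change 0.36 ± 0.0854 (SE), adjusted p = 0.0108). In mESCs, Tet1 stood at 41.2 and 41.2 FPKM in Hira-null, against 52.6 and 53.6 FPKM in WT (-0.36 ± 0.0827 (SE), adjusted p = 0.00859). The groups did not overlap at either day, and the effect at day 15 minus that at day 0 was 0.72 (95% interval 0.45 to 0.99, adjusted p = 0.00258). The day 15 call was lost without WT day 15 replicate 1 (0.27, adjusted p = 0.0926). The day 0 call was lost without either Hira-null day 0 library (adjusted p = 0.0597 and 0.0587) or with quantile normalization (0.0508).

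Tet2 (chromosome 3, 133126643 to 133207354 in NCBIM37, minus strand) was lower in Hira-null mESCs at day 0, at 29.0 and 29.6 FPKM, against 40.0 and 40.0 FPKM in WT (log2 fold change -0.44 ± 0.0793 (SE), adjusted p = 0.00277). This call held under each of the 18 other settings. At day 15 Tet2 stood at 19.4 and 18.0 FPKM in the libraries labelled Hira-null, against 17.1 and 17.8 FPKM in WT (0.09, 95% interval -0.09 to 0.28, adjusted p = 0.410). The effect at day 15 minus that at day 0 was 0.53 (95% interval 0.27 to 0.79, adjusted p = 0.00812). Tet3 (chromosome 6, 83312367 to 83391672 in NCBIM37, minus strand), the TET gene of oocytes and of differentiated cells such as neurons, stood at 26.3 and 29.4 FPKM in the day 15 libraries labelled Hira-null, against 22.4 and 21.6 FPKM in WT. These groups did not overlap, but the difference of 0.33 ± 0.114 (SE) just missed the test (95% interval 0.07 to 0.58, adjusted p = 0.0520), and it passed under 7 of the 18 other settings. At day 0 Tet3 stood at 4.66 and 4.05 FPKM in Hira-null, against 4.70 and 4.58 FPKM in WT (-0.08, 95% interval -0.33 to 0.17, adjusted p = 0.627).

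The upstream sequences of the TET genes are shown because these genes moved in different directions between the days and because their CpG content differs. Each is the 250 bases before the RefSeq start on the minus strand of GRCm38.p6, read in the direction of transcription, again with CpG in capitals. The Tet1 run spans chr10:62887325-62887574, the Tet2 run chr3:133544391-133544640 and the Tet3 run chr6:83441679-83441928.
Tet1: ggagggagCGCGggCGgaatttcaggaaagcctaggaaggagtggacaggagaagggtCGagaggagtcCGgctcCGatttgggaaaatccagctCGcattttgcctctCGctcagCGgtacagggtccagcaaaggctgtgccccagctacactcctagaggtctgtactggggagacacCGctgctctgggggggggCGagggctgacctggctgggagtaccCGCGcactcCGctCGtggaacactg
Tet2: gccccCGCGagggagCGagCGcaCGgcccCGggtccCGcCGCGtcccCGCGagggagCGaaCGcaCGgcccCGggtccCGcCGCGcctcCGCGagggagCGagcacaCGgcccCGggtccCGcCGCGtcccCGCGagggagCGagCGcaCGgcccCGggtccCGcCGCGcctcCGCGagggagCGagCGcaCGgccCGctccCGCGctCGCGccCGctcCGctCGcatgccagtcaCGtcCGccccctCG
Tet3: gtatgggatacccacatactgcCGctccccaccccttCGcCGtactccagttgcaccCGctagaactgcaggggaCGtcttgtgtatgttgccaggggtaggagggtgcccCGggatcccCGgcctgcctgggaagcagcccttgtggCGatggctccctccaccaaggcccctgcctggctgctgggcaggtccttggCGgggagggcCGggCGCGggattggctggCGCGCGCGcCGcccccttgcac
The Tet2 run holds 51 CpG, more than 99.9% of the 32817 windows, the Tet1 run 15 and the Tet3 run 17. All 9 genes matched the RefSeq promoter table, with 16 windows in all, of which 12 held at least the median of 6 CpG. Dnmt1, Dnmt3a and Dnmt3l have 3 windows each. The first and second Dnmt3a windows overlap and share a GC box, so the 16 windows are not independent. On both strands, the GC box GGGCGG of SP1 was found in 11 of the 16 windows (32.7% of all windows) and the CCAAT box in 6 (33.8%). The octamer ATTTGCAT bound by OCT4 and the E2F words TTTGGCGC and TTTCCCGC were found in 0 of the 16 (1.603% and 1.30% of all windows). A GC box can share bases with the E2F word TTTCCCGC on the other strand. A match describes the window and is no more than that.

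**Figure D2:**
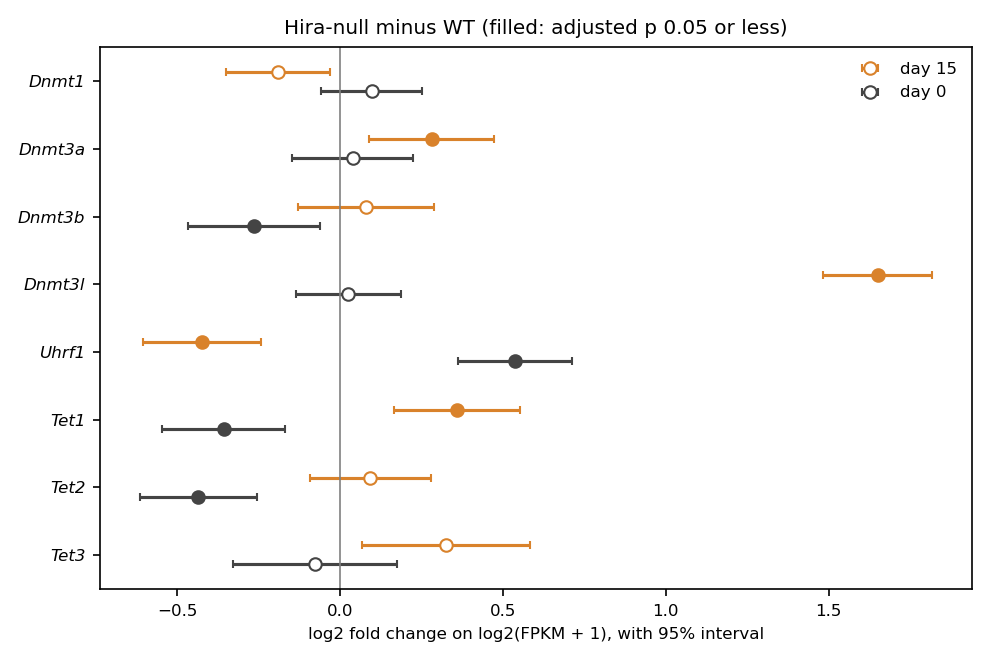
Hira-null minus WT at day 15 and at day 0 for the 8 tested genes, as log2 fold change on log2(FPKM + 1) (horizontal axis) with its 95% interval. Filled circles have an adjusted p of 0.05 or less. Dnmt3l at day 15 stood at 1.65, and the Uhrf1 and Tet1 points of the 2 days lie on opposite sides of 0.

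Tdg (chromosome 10, 82092573 to 82113544 in NCBIM37, plus strand), the gene of the glycosylase that follows the TET enzymes, was barely counted in this table. It stood at 0.384 and 0.457 FPKM in the day 15 libraries labelled Hira-null, against 0.165 and 0.371 FPKM in WT. At day 0 it stood at 0.181 and 0.212 FPKM in Hira-null, against 0.0422 and 0.221 FPKM in WT. These values rest on 1 to 14 fragments a library, so no difference was detectable at this depth, and voom without a filter on low values gave adjusted p of 0.492 at day 15 and 0.478 at day 0. Copies of the gene elsewhere in the genome cover 52.3% of its exon bases at 98% identity or more, at 4 loci. An opposite-strand gene, Glt8d2, shares another 6.83% of its exon bases. The sources used here do not say how fragments that match several places were counted, and the part of these copies in the low values was not tested.

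The order of the levels, compared per length, was identical in both genotypes at day 0: Dnmt3l, Uhrf1, Dnmt1, Dnmt3b, Tet1, Tet2, Dnmt3a, Tet3 and Tdg, with no neighbours overlapping. At that day Dnmt3l stood above 97.9% of the genes at FPKM 1 or more in Hira-null and 97.6% in WT. At day 15 the order differed. In the libraries labelled Hira-null, Dnmt3a, Dnmt1, Dnmt3b and Uhrf1 led with overlapping neighbours, followed by Tet3 and Dnmt3l, which also overlapped, then Tet1, Tet2 and Tdg. In WT at day 15, Uhrf1 and Dnmt1 led, Dnmt3b and Dnmt3a overlapped, and Tet3, Tet2, Tet1, Dnmt3l and Tdg followed. Dnmt3l thus came before Tet1 in the day 15 libraries labelled Hira-null and after Tet1 in WT.

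The mix of transcripts within each enzyme family was compared library by library, with no test. The TET transcripts summed to 66.9 ± 1.37 FPKM in the day 15 libraries labelled Hira-null and 55.2 ± 1.40 FPKM in WT (SD, n = 2 each). At day 0 they summed to 74.8 ± 0.00582 FPKM in Hira-null and 97.7 ± 0.676 FPKM in WT (SD, n = 2 each). The sums were thus higher at day 15 and lower at day 0 in Hira-null, without overlap. Within that sum, Tet3 made up 39.8% to 43.3% in the day 15 libraries labelled Hira-null and 38.5% to 41.3% in WT. At day 0 Tet3 made up 5.41% to 6.23% in Hira-null and 4.66% to 4.83% in WT, while Tet1 was the largest part, at 55.0% to 55.1% and 54.0% to 54.6%. The mix of TET transcripts therefore differed by more between the days than between the genotypes. Dnmt3b made up 45.5% to 47.6% of Dnmt3a plus Dnmt3b in the day 15 libraries labelled Hira-null and 49.3% to 50.9% in WT. At day 0 it made up 68.9% to 69.3% in Hira-null and 72.8% to 74.2% in WT, so the share was lower in Hira-null at both days. Dnmt3l transcripts per Dnmt3a plus Dnmt3b transcript came to 0.289 ± 0.0324 in the day 15 libraries labelled Hira-null and 0.0959 ± 0.00244 in WT, and at day 0 to 3.18 ± 0.173 in Hira-null and 2.75 ± 0.156 in WT (SD, n = 2 each). The catalytic writers Dnmt1, Dnmt3a and Dnmt3b together stood at 2.03 ± 0.116 times the TET sum in the day 15 libraries labelled Hira-null and 2.38 ± 0.117 times in WT. At day 0 the same ratio was 2.23 ± 0.0672 in Hira-null and 1.75 ± 0.0112 in WT (SD, n = 2 each), the reverse order.

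**Figure D3:**
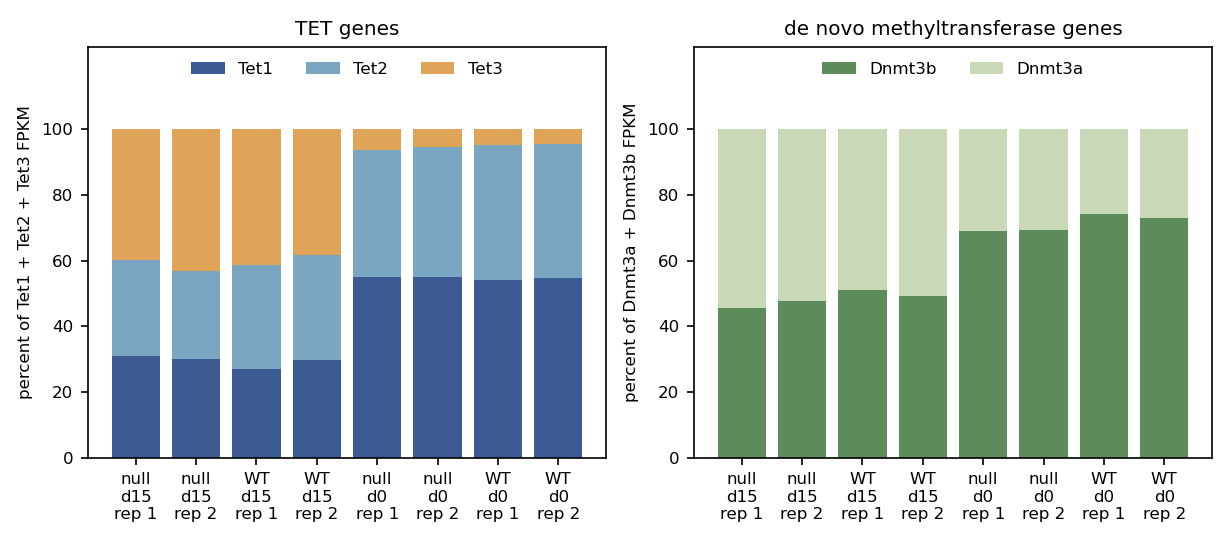
Left, percent of the summed Tet1, Tet2 and Tet3 FPKM taken by each gene. Right, percent of the summed Dnmt3a and Dnmt3b FPKM. Each bar is 1 library, with Hira-null (null) before WT and day 15 (d15) before day 0 (d0). Tet3 took at least 38.5% in every day 15 library and at most 6.23% in every day 0 library.

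Between the days, all 8 tested members changed in both genotypes on the deposited scale, with Dnmt3a and Tet3 higher and the other 6 lower at day 15. In the Hira-null line 37.5% of all tested genes were called higher at day 15 and 36.4% lower, and in WT 36.1% and 33.4%. Dnmt3l, an mESC gene, fell to 26.0 ± 0.696 FPKM at day 15 in the libraries labelled Hira-null, against 236 ± 2.59 FPKM at day 0, a 9.10-fold difference. In WT it fell to 7.60 ± 0.390 FPKM, against 232 ± 12.2 FPKM, a 30.6-fold difference (SD, n = 2 each). Tet3 rose to 27.8 ± 2.23 FPKM in the libraries labelled Hira-null, against 4.35 ± 0.431 FPKM at day 0, and in WT to 22.0 ± 0.558 FPKM, against 4.64 ± 0.0825 FPKM. The fold was 6.39 in Hira-null and 4.74 in WT. Dnmt3a, whose product is known as the main de novo enzyme of differentiated tissue, rose 2.09-fold in Hira-null and 1.76-fold in WT.

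Uhrf1 fell by 2.10 on the log2 scale in Hira-null and by 1.14 in WT between the days. Tet1 fell by 0.98 in Hira-null and by 1.70 in WT, Tet2 by 0.62 and 1.15, and Dnmt1 by 1.004 and 0.72. Uhrf1 therefore differed between the days by more in Hira-null, and Tet1 and Tet2 by more in WT, by the same interaction test as above. The smallest change was that of Dnmt3b, with a log2 fold change of -0.29 in Hira-null (adjusted p = 0.0174) and -0.63 in WT (adjusted p = 0.000238). Rescaling each library to the same FPKM sum, a setting chosen after seeing the data, moved the median of all tested genes to 0.50 in Hira-null and 0.47 in WT, against 0.01 and 0.03 on the deposited scale. With that rescaling, calls over all genes came to 7601 higher and 3269 lower in Hira-null and 7400 and 2824 in WT, against 5382 and 5215 in Hira-null and 5175 and 4786 in WT on the deposited scale. Dnmt3b then reversed to 0.23 in Hira-null (adjusted p = 0.0332) and was not called in WT (-0.17, adjusted p = 0.0969), and Tet2 was not called in Hira-null (-0.12, adjusted p = 0.246). Relative to the median of all genes, Dnmt3b stood at -0.27 in Hira-null and -0.65 in WT under the rescaling, against -0.30 and -0.67 on the deposited scale. The other members had the same direction and stayed past the test on both scales.

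**Figure D4:**
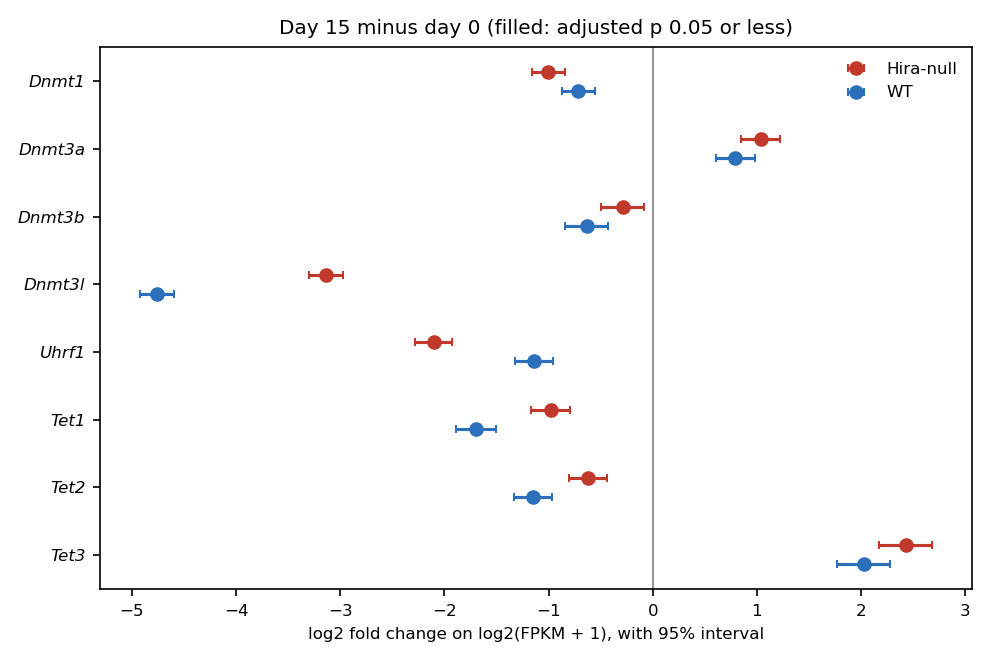
Day 15 minus day 0 in Hira-null and in WT for the 8 tested genes, as log2 fold change on log2(FPKM + 1) (horizontal axis) with its 95% interval. Filled circles have an adjusted p of 0.05 or less. Dnmt3l lies lowest, at -3.14 in Hira-null and -4.76 in WT, and Tet3 highest, at 2.43 and 2.03, and the Dnmt3b point of Hira-null changes sign when libraries are rescaled to the same FPKM sum.

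The genotype effects at the 2 days, which share no library, were then set against each other directly. The effect at day 15 minus that at day 0 was positive and past the test for 3 members (Dnmt3l, Tet1 and Tet2) and negative for 2 (Uhrf1 and Dnmt1), where 17.5% and 17.7% of all tested genes were called. The Dnmt1 call was lost under 12 of 17 other settings, which leaves Uhrf1 as the 1 negative call there. Dnmt3a, Dnmt3b and Tet3 did not pass. The median over the 8 tested members was 0.37, against 0.02 over all tested genes.

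The germline genes known to be kept silent by promoter DNA methylation had the largest median difference of the gene lists at day 0. These are germ cell genes, among them genes of meiosis and of the piRNA pathway, of a kind that mouse cells without DNA methyltransferases express. At day 0, 17 of the 20 genes were higher in Hira-null mESCs, 1 was lower and 2 did not pass, with a median log2 fold change of 1.19, where 20.8% of all tested genes were higher and their median was 0.01. The list was chosen with earlier results of these data known, so this comparison with all genes is a description and not a test. The FPKM of the 20 genes summed to 658 to 661 in the Hira-null libraries and 258 to 268 in WT. Several were thus not silent in WT mESCs, among them Tuba3a at 41.4 FPKM, Rpl10l at 32.6 FPKM and Mael at 21.0 FPKM. Tex101, a germ cell surface protein gene, averaged 14.6 FPKM in Hira-null and 1.86 FPKM in WT (log2 fold change 2.45, adjusted p = 6.88e-05). Dazl, which encodes a germ cell RNA-binding protein, averaged 79.1 FPKM in Hira-null and 15.4 FPKM in WT. Sycp3, a gene of the meiotic chromosome axis, averaged 17.9 FPKM and 3.26 FPKM, and Taf7l, a germ cell transcription factor gene, 25.7 FPKM and 5.14 FPKM in Hira-null and WT. The lower gene, named after its values were seen, was Tex19.1, at 60.0 FPKM in Hira-null and 77.2 FPKM in WT. Under the 18 other settings 15 to 17 of the 20 were called higher. No DNA methylation data were analysed here.

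At day 15 most of the germline genes did not pass the test, and several were near 0 FPKM in both groups, where log2(FPKM + 1) understates changes. In the libraries labelled Hira-null and in WT, Dpep3 averaged 0.0959 and 0.133 FPKM, Tex101 0.558 and 0.202 FPKM, and Piwil2 0.793 and 0.886 FPKM. In the libraries labelled Hira-null 4 of the 20 genes were higher, 1 was lower and 15 did not pass, with a median of 0.00, where 18.6% of all tested genes were higher and 18.8% lower. The sums were 49.3 to 49.98 FPKM, against 41.8 to 43.0 FPKM in WT. Dazl was the lower gene, at 1.33 FPKM in the libraries labelled Hira-null and 6.29 FPKM in WT, while Rpl10l, a ribosomal protein gene of the testis, averaged 15.04 FPKM and 5.70 FPKM. Between the days 20 of the 20 germline genes fell in Hira-null, where 36.4% of all tested genes fell, and 18 in WT, where 33.4% did. The effect at day 15 minus that at day 0 was negative and past the test for 14 of them, against 17.7% of all tested genes. For a gene near 0 FPKM in both day 15 groups, that sign follows from a higher day 0 level in Hira-null.

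Of 10 genes of readers of methylated DNA and related proteins, 2 were higher and 1 was lower under the Hira-null label at day 15. Of all tested genes, 18.6% were called higher and 18.8% lower. At day 0 none was higher and 2 were lower in Hira-null, against 20.8% and 19.4% of all tested genes. The counts at day 15 are near the shares of all genes. Zfp57, whose product binds methylated imprinting control regions, was lower at both days, at 26.8 FPKM in the day 15 libraries labelled Hira-null and 34.2 FPKM in WT (-0.34 on the log2 scale, adjusted p = 0.0113), and in mESCs at 36.6 FPKM and 55.2 FPKM (-0.58, adjusted p = 0.000625). Mbd3, a subunit of the NuRD complex, averaged 88.1 FPKM in the day 15 libraries labelled Hira-null and 63.6 FPKM in WT (0.46, adjusted p = 0.0124). Between the days, on the deposited scale, 6 genes of this list rose and 2 fell in Hira-null (37.5% and 36.4% of all tested genes) and 6 rose and 3 fell in WT (36.1% and 33.4%).

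Among 17 partners and regulators of the methyltransferases, 2 were higher and 5 lower under the Hira-null label at day 15 (18.6% and 18.8% of all tested genes), and 2 were higher and 5 lower in Hira-null at day 0 (20.8% and 19.4%). The called genes, in both directions together, made up about the same share as among all tested genes. Dppa3, whose product binds UHRF1 and limits DNA methylation in oocytes, averaged 0.540 FPKM in the day 15 libraries labelled Hira-null and 10.6 FPKM in WT (log2 fold change -2.91, adjusted p = 0.000156). At day 0 it averaged 3.40 FPKM in Hira-null and 15.1 FPKM in WT (-1.85, adjusted p = 0.00103). Prdm14, which encodes a repressor of de novo methyltransferase genes in mESCs, averaged 1.28 FPKM in the day 15 libraries labelled Hira-null and 2.31 FPKM in WT, and at day 0 21.8 FPKM in Hira-null and 9.95 FPKM in WT. Both of its differences passed the test, in opposite directions (-0.54 and 1.06). Cdca7, a partner of the remodeller gene Hells, averaged 16.7 FPKM in the day 15 libraries labelled Hira-null and 31.5 FPKM in WT (-0.87, adjusted p = 0.000136).

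Partners and cofactor enzymes of the TET proteins numbered 16, of which 4 were higher and 1 lower under the Hira-null label at day 15 (18.6% and 18.8% of all tested genes), and 3 higher and 1 lower in Hira-null at day 0 (20.8% and 19.4%). Neither count, both directions together, exceeds the share over all genes. Idh1 and Idh2 make the oxoglutarate that TET enzymes use. Idh1 averaged 54.9 FPKM in the day 15 libraries labelled Hira-null and 35.3 FPKM in WT (0.63, adjusted p = 0.00158), and Idh2 109 FPKM in Hira-null and 60.7 FPKM in WT at day 0 (0.83, adjusted p = 0.000528). Cxxc5, a CXXC zinc finger gene, was higher at both days, at 39.2 FPKM in the libraries labelled Hira-null and 26.9 FPKM in WT at day 15, and at 37.1 FPKM and 25.4 FPKM at day 0.

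A list of base excision repair genes also held Gadd45a, Gadd45b, Gadd45g and Apobec1, which are not base excision repair genes. Of its 15 tested genes, 3 were higher and 6 lower under the Hira-null label at day 15 (median -0.36), where 18.6% and 18.8% of all tested genes were called. At day 0, 5 were higher and 1 lower in Hira-null (median 0.14), where 20.8% and 19.4% of all tested genes were called. Gadd45b and Gadd45g were among the higher genes at both days and Apobec1 among the lower genes at day 15, so these counts are not those of base excision repair alone. The list was not tested as a group. The glycosylase gene Neil3 averaged 1.37 FPKM in the day 15 libraries labelled Hira-null and 7.97 FPKM in WT (-1.92, adjusted p = 7.35e-05). Gadd45b, which encodes a stress-induced protein linked to demethylation, was higher at both days, at 18.7 FPKM in the day 15 libraries labelled Hira-null and 8.14 FPKM in WT (1.10), and at 74.0 FPKM and 20.7 FPKM at day 0 (1.79).

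Of 13 genes that supply the methyl donor, 1 was higher and 3 lower under the Hira-null label at day 15, near or below the 18.6% and 18.8% of all tested genes. At day 0, 1 was higher and 5 lower in Hira-null, against 20.8% and 19.4%. Mat2a, which encodes the catalytic subunit of the enzyme that makes S-adenosylmethionine, averaged 53.2 FPKM in the day 15 libraries labelled Hira-null and 75.7 FPKM in WT (-0.50, adjusted p = 0.00102), and at day 0 17.7 FPKM in Hira-null and 93.3 FPKM in WT (-2.34, adjusted p = 8.53e-07). Its effect at day 15 minus that at day 0 was 1.83. Shmt1, a folate enzyme gene, averaged 20.6 FPKM in the day 15 libraries labelled Hira-null and 37.9 FPKM in WT, and at day 0 60.7 FPKM in Hira-null and 102 FPKM in WT.

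Cell cycle and cell type markers also differed between the genotypes, and their counts stand against 18.6% higher and 18.8% lower of all tested genes at day 15 and 20.8% and 19.4% at day 0. Of 20 DNA replication and S phase genes, 1 was higher and 11 lower under the Hira-null label at day 15 (median -0.29, sums 583 to 613 FPKM, against 750.0 to 787 FPKM in WT). At day 0, 2 were higher and 7 lower in Hira-null (sums 1722 to 1765 FPKM, against 1798 to 1857 FPKM in WT). Uhrf1 and Dnmt1 are themselves known as genes of replicating cells. Uhrf1 went with the S phase list at day 15 and against its median of -0.10 at day 0. Of 15 G2 and mitosis genes, none was higher and 7 were lower under the Hira-null label at day 15 (median -0.14). At day 0, 8 of them were higher and 2 lower in Hira-null (median 0.28). Uhrf1 had the sign of the G2 and mitosis median at both days. The part of the cell cycle in the Uhrf1 differences was not tested. Of 20 pluripotency factors, 8 were higher and 7 lower under the Hira-null label at day 15 (sums 912 to 925 FPKM, against 704 to 741 FPKM in WT), and 10 were higher and 2 lower in Hira-null at day 0 (sums 6129 to 6135 FPKM, against 4328 to 4517 FPKM in WT). Pou5f1, which encodes OCT4, averaged 144 FPKM in the day 15 libraries labelled Hira-null and 82.0 FPKM in WT. Klf2 went the other way, at 22.5 FPKM and 41.8 FPKM (log2 fold change -0.86), as did Nanog, at 21.9 FPKM and 34.3 FPKM. The sums weigh highly expressed genes most, such as Dppa5a at 287 FPKM and 186 FPKM. All 20 fell between the days in both genotypes on the deposited scale.

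Neuron markers were higher in 10 of 12 cases in the day 15 libraries labelled Hira-null and neural progenitor markers in 7 of 10, with none lower (sums of the progenitor list 1481 to 1660 FPKM, against 801 to 862 FPKM in WT). Vim alone made up most of the progenitor sums, at 1103 FPKM in the libraries labelled Hira-null and 650 FPKM in WT. Blood and macrophage markers were lower in 10 of the 10 tested (sums 23.6 to 24.4 FPKM, against 110 to 120 FPKM in WT, with Hbb-bh1 and Hba-x at 0 in both libraries labelled Hira-null). Visceral endoderm and hepatic markers were lower in 8 of 9 (6.64 to 7.33 FPKM, against 141 to 144 FPKM in WT, with Fgb at 0 in both libraries labelled Hira-null). Endothelial markers were lower in 7 of 9 (21.4 to 21.9 FPKM, against 52.2 to 53.9 FPKM in WT), fibroblast and mesenchyme markers in 9 of 10 (1242 to 1447 FPKM, against 2562 to 2835 FPKM in WT), and smooth muscle markers in 6 of 8 (689 to 703 FPKM, against 1035 to 1137 FPKM in WT). Of 12 cardiomyocyte markers, 1 was higher and 5 were lower. At day 0 the endothelial sum was 70.7 to 74.0 FPKM in Hira-null and 69.8 to 70.0 FPKM in WT, above both day 15 groups. Such sums therefore do not measure a cell type alone. Markers of several cell types thus differed between the day 15 groups alongside Dnmt3l, Tet1, Dnmt3a and Uhrf1. Whether the makeup of the cultures differed, and its part in these 4 differences, was not tested.

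For each member the genes with the most alike profile were sought among the 14337 tested, by the distance between centred log2(FPKM + 1) values over the 8 libraries. This distance grows with the size of a gene's changes, and by it Dnmt3l lay farthest from its nearest genes. These were Phlda2, an imprinted gene, at a distance of 0.91, and Rhox13, a homeobox gene of the X chromosome, at 1.07. Their profiles correlated with that of Dnmt3l at 0.988 and 0.991. For the other members the correlation with the nearest gene ran from 0.985 (Dnmt3b) to 0.998 (Uhrf1). These genes were picked for their closeness, so the correlations cannot tell whether the shape of the Dnmt3l profile stood apart. The nearest gene of each other member lay within a distance of 0.29. These were Ube2o for Dnmt1 (0.13), Gpi1 for Uhrf1 (0.17), Zfp407 for Dnmt3a (0.16), Prpf6 for Dnmt3b (0.13), Nol6 for Tet1 (0.29), Psma6 for Tet2 (0.15) and Sardh for Tet3 (0.23). The points of such a profile share the 4 groups and the same libraries. Phlda2 averaged 4.71 FPKM in the day 15 libraries labelled Hira-null, 2.02 FPKM in WT at day 15, 74.5 FPKM in Hira-null at day 0 and 52.5 FPKM in WT at day 0.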

How the data were processed

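RNA was sequenced from 8 libraries. According to the study's methods these were stranded, paired-end libraries, aligned by the authors with Bowtie to NCBIM37 (mm9). The submitters' processing notes name Bowtie 0.12.2 and DESeq2 1.6.3. The authors deposited FPKM for 24421 genes. The sources used here do not say how FPKM was computed or whether strand was used. Tables of the authors' own comparisons (mean normalized count, fold change, p-value) were not used. Fragments were recovered from FPKM with a scale for each gene, chosen so that its values were whole within 0.1. That all positive values (100%) came out whole follows from this choice and is no check on the recovered fragments. These fragments gave the depths, which cover counting error alone.

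The 14337 genes that reached FPKM 1 in 2 libraries or more were fitted as log2(FPKM + 1), which understates changes of low genes. The fit, in limma 3.58.1 (R 4.3.3), had 4 group means, weights of 0.968 for day 15 and 1.03 for day 0, and an empirical Bayes trend (4 residual and 4.70 prior degrees of freedom). Benjamini-Hochberg adjusted p of 0.05 or less, over all tested genes, counted as called. The fit was tested on simulated data. The libraries of a group came from different biological samples. Voom was run on the recovered fragments, as an alternative chosen after seeing the data. Other alternatives were the pseudocount, filters, scalings, weights, the replicate block and leaving out each library.

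The members and gene lists were chosen with earlier results of these data known. Named genes are the 9 members, up to 4 called genes with the largest change per list, and the nearest profiles. Positions come from the NCBIM37 annotation, near copies of exons from a blastn search of that genome, and upstream sequences from RefSeq (GRCm38.p6). The ChIP-seq of the study was not analysed here. Dates stood in place of 27 gene symbols, which were not used.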

Additional observations from a re-analysis of the deposited data

Results flagged for a closer look

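For 5 members the genotype effect (Hira-null minus WT, log2) differed between day 15 and day 0 by a test of the difference itself. Dnmt3l had an effect of 1.65 at day 15 and 0.03 at day 0, a difference of 1.63 (adjusted p = 7.04e-05). Uhrf1 had -0.42 at day 15 and 0.54 at day 0, a difference of -0.96 (adjusted p = 0.000584). Tet1 had 0.36 at day 15 and -0.36 at day 0, a difference of 0.72 (adjusted p = 0.00258). Tet2 had 0.09 at day 15 and -0.44 at day 0, a difference of 0.53 (adjusted p = 0.00812). Dnmt1 had -0.19 at day 15 and 0.10 at day 0, a difference of -0.29 (adjusted p = 0.0494), a call lost under 12 of 17 other settings (adjusted p up to 0.153). In the libraries labelled Hira-null, Hira messenger RNA was not below WT at day 15 (log2 fold change 0.20) and was below it at day 0 (-1.17).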

How the results depend on the processing

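Of the 712 values that 18 other settings gave for the 40 comparisons of members, 652 had the same direction and the same side of the threshold, 36 lost a call, 16 gained one and 8 changed sign, of which 1 was past the test. For 22 of the 40 nothing changed under any setting run, among them Dnmt3l at day 15 (lowest and highest value 1.605 and 1.84), Uhrf1 at day 0 (0.49 and 0.59) and Tet2 at day 0 (-0.49 and -0.33). When each library was left out in turn, the number of members called ranged from 1 to 5 at day 15 (1 without WT day 15 replicate 1) and from 2 to 4 at day 0 (2 without either Hira-null library). In these runs the uncalled values crossed 0 for Dnmt3b at day 15 (-0.037 to 0.20) and, at day 0, for Dnmt3a (-0.014 to 0.090), Dnmt3l (-0.028 to 0.078) and Tet3 (-0.16 to 0.0053). With each library rescaled to the same FPKM sum, Dnmt3b between the days in Hira-null changed sign to 0.23, past the test, and Dnmt3a (-0.0056) and Dnmt3l (-0.020) at day 0 changed sign without passing it. Between the days in WT, voom on recovered fragments, also added after seeing the data, moved the median of all genes to 0.17, against 0.03 on the deposited scale. With the replicate number as a replicate block, 3 members were called at day 15, 3 at day 0, 8 between the days in Hira-null, 8 in WT and 4 for the difference between the genotype effects. The block ended the calls of Dnmt3a at day 15, Dnmt3b at day 0 and Dnmt1 for that difference. Deviations of same-numbered libraries correlated at -0.097 at day 15 and 0.033 at day 0, so the numbers were not taken as pairs. The spread rests on 2 libraries a group, and a single fragment limits the values of Tdg.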
